A study of Mus musculus with 8 samples.

Results

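Gene expression after the first 6 hours at 39 °C was described from 4 of the 8 arrays of a time course in TTE3 cells, a line of Sertoli cells, the somatic cells that support germ cells in the testis tubule. The 2 arrays titled 6 h were set against the 2 titled 0 h, and every non-control probe set was a candidate. The line came from transgenic mice, and the cells of every group carry the transgene, a large T-antigen of the simian virus SV40 in a temperature-sensitive form. The sources used here give neither its promoter, nor the temperature before 0 h, nor whether samples of a time were separate cultures. Any p-value therefore rests on the spread between samples of the same time, pooled over all times and drawn toward that of other probe sets. That spread may be technical. Cells at 6 h differ from those at 0 h in temperature, in time since the shift and in the state of the T-antigen, and these cannot be told apart here. After removal of 64 control probe sets, 22626 were left, and 13576 were bright enough to be tested, for 7707 named genes.

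Several programmes are known to answer a shift of this kind. In the heat shock response, the factor HSF1 switches on genes of cytosolic chaperones, which hold or refold unfolded proteins, while the unfolded protein response does the same for proteins in the endoplasmic reticulum (ER). Inactivation of the large T-antigen frees p53 and the RB proteins, which it binds. Heat is also known to stall RNA splicing and to act on the short-lived transcripts of growth control genes.

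The Sertoli label was checked against 27 marker genes with a probe set, of which 11 were bright enough to be tested. Of these, 2 were higher (Kitl and Inhbb), 1 was lower and 8 were not called, in the test described below. Leaving out 6 h replicate 1, 6 h replicate 2, 0 h replicate 1 and 0 h replicate 2 in turn gave 2, 3, 0 and 2 higher and 1, 2, 0 and 0 lower. The called fall was that of Wt1, a transcription factor of Sertoli cell identity, with 88.7 and 116 units at 6 h, against 162 and 179.8 units at 0 h (log2 change -0.64 ± 0.20), where adjusted p = 0.14 when 0 h replicate 1 was left out, 0.216 when 0 h replicate 2 was left out and 0.187 when 6 h replicate 1 was left out. Vim, which encodes vimentin, had 18361 and 15078 units at 6 h, against 18399 and 17993 units at 0 h. Gata4, encoding a factor needed for Sertoli cell identity, had 524 and 467 units at 6 h, against 552 and 559.7 units at 0 h, and neither was called. The Sertoli products Amh, the anti-Müllerian hormone, and Dhh, desert hedgehog, and the hormone receptor Fshr lay at or below 50.6 units on all 4 arrays, too dim to be tested. Among markers of Leydig, myoid, germ, macrophage and endothelial cells, 18 list entries were tested and 0 were called, against 18.5% of all genes, and 1 Leydig entry was called lower when 6 h replicate 2 was left out. These counts speak of change and not of presence. The summed signal of the 22 germ cell markers with a probe set was 944 and 1021 units at 6 h, against 824 and 1070.4 units at 0 h. For 8 Leydig markers it was 2010.5 and 1863 units at 6 h, against 2184 and 2344 units at 0 h. Of this Leydig sum, Fdx1 alone had 1114 and 1015 units at 6 h, against 1138 and 1236 units at 0 h. The Leydig genes Cyp11a1, Cyp17a1 and Hsd3b1 lay at or below 14.1 units on all 4 arrays. For 13 myoid markers the sum was 3150 and 3746 units at 6 h, against 3523 and 3559 units at 0 h. Most of it was Tpm2, with 2331 and 2876 units at 6 h, against 2779 and 2759 units at 0 h. Sums carried by so few genes do not measure the presence of these cell types. Macrophage and endothelial sums lay at or below 1157.6 units on all 4 arrays.

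Change was broad and mostly small. In the limma fit 2441 probe sets were called (18%) at a Benjamini-Hochberg adjusted p below 0.05, where 1175 probe sets were higher at 6 h than at 0 h (8.65% of those tested) and 1266 were lower (9.33%). Of these, 161 (1.19%) rose and 134 (0.987%) fell at least 2-fold on the log2(intensity + offset) scale. Taking each gene by its brightest probe set, 705 genes (9.15%) were higher and 719 (9.33%) lower, with a median log2 change of 0.0092 over all genes. All counts of gene lists below are to be read against these shares and this median. In 59.1% of all tested probe sets the 2 arrays at 6 h did not overlap the 2 at 0 h, so a lack of overlap alone is common. Calls were fewer among dim probe sets: of 4 equal groups by brightness, the dimmest had 4.4% called higher and 4.2% lower, and the brightest 10.6% and 10.7%. Each ± gives the fit's standard error, values in brackets after signals are log2 changes (6 h minus 0 h), and "rose" and "fell" are used of called genes. The calls rested in part on the 0 h arrays, since 836 probe sets were called with 0 h replicate 1 left out and 950 with 0 h replicate 2 left out. Where leaving out 1 array moved a list's count by over 1.5 times, the counts then obtained follow as left-out counts. Their order is without 6 h replicate 1, 6 h replicate 2, 0 h replicate 1 and 0 h replicate 2. They are to be read beside the calls over all probe sets in the same fits, not beside the shares above. Those calls moved with the same arrays, so a moved count is not by itself particular to a list.

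**Figure D1:**
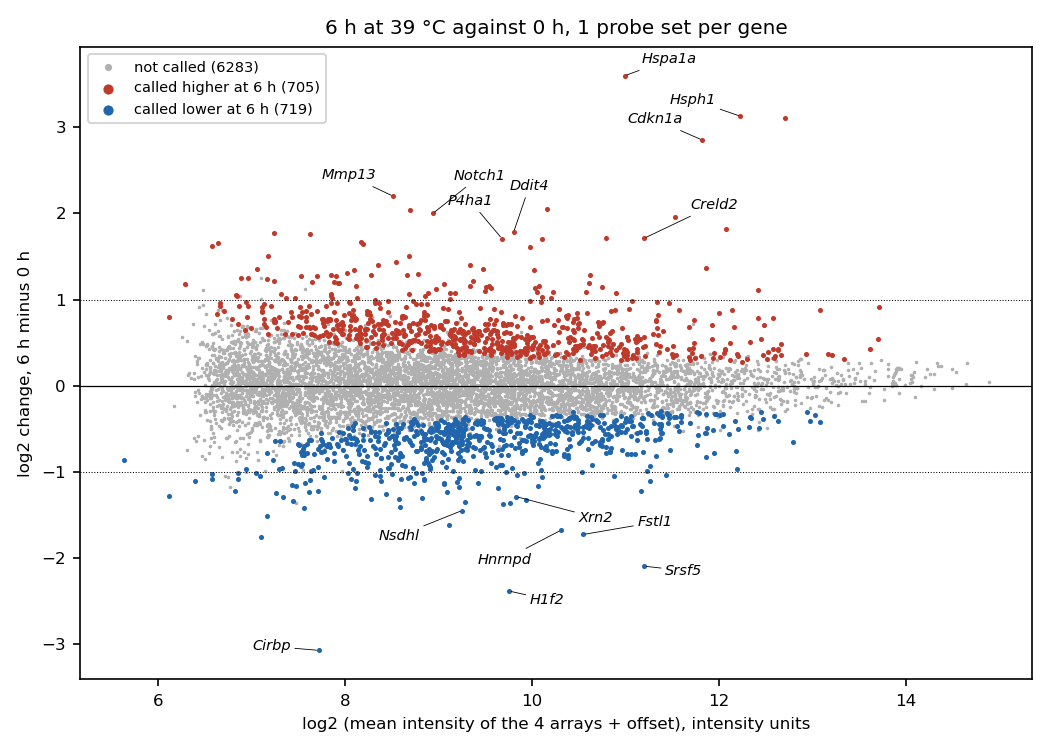
Each point is 1 of 7707 genes, placed by its log2 mean intensity over the 4 arrays of 6 h and 0 h plus the offset (x) and by its log2 change, 6 h minus 0 h (y). Red genes were called higher (705), blue genes lower (719) and grey genes not called, and dotted lines mark a 2-fold change. Few genes lie beyond 2-fold, led upward by Hspa1a and Hsph1 and downward by Cirbp and H1f2.

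The 40 gene lists differed in how many of their members were called. Upward calls were most frequent among p53 targets (23 of 37 tested, median log2 change 0.92), cytosolic heat shock genes (19 of 39, median 0.32) and ER chaperone and stress genes (17 of 52, median 0.25). Downward calls were most frequent among cholesterol and fatty acid synthesis genes (17 of 31, median -0.41) and CCN family and YAP target genes (5 of 17, median -0.18). The ER counts (left-out counts 16, 17, 10 and 10 higher), the sterol and fatty acid counts (left-out counts 14, 15, 4 and 6 lower) and the CCN and YAP counts (left-out counts 2, 0, 1 and 0 higher, and 3, 6, 2 and 2 lower) depended on single arrays, and the p53 and heat shock rises did not move by over 1.5 times. Counting both directions together, the SR protein and hnRNP list (40.0% called) also stood above all genes (18.5%). So did that of mTORC1 brakes, FOXO factors and growth arrest genes (37.5%). This was common: the MYC network (33.3%), ATF4 and amino acid genes (32.3%) and replication genes (30.2%) did as well. Other lists stood below, such as cytosolic ribosomal proteins (2.4%). Over all 47 lists, 352 of 1506 tested genes were called. G1 and S phase regulators had 3 higher and 0 lower of 30 (left-out counts 3, 5, 1 and 1 higher).

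**Figure D2:**
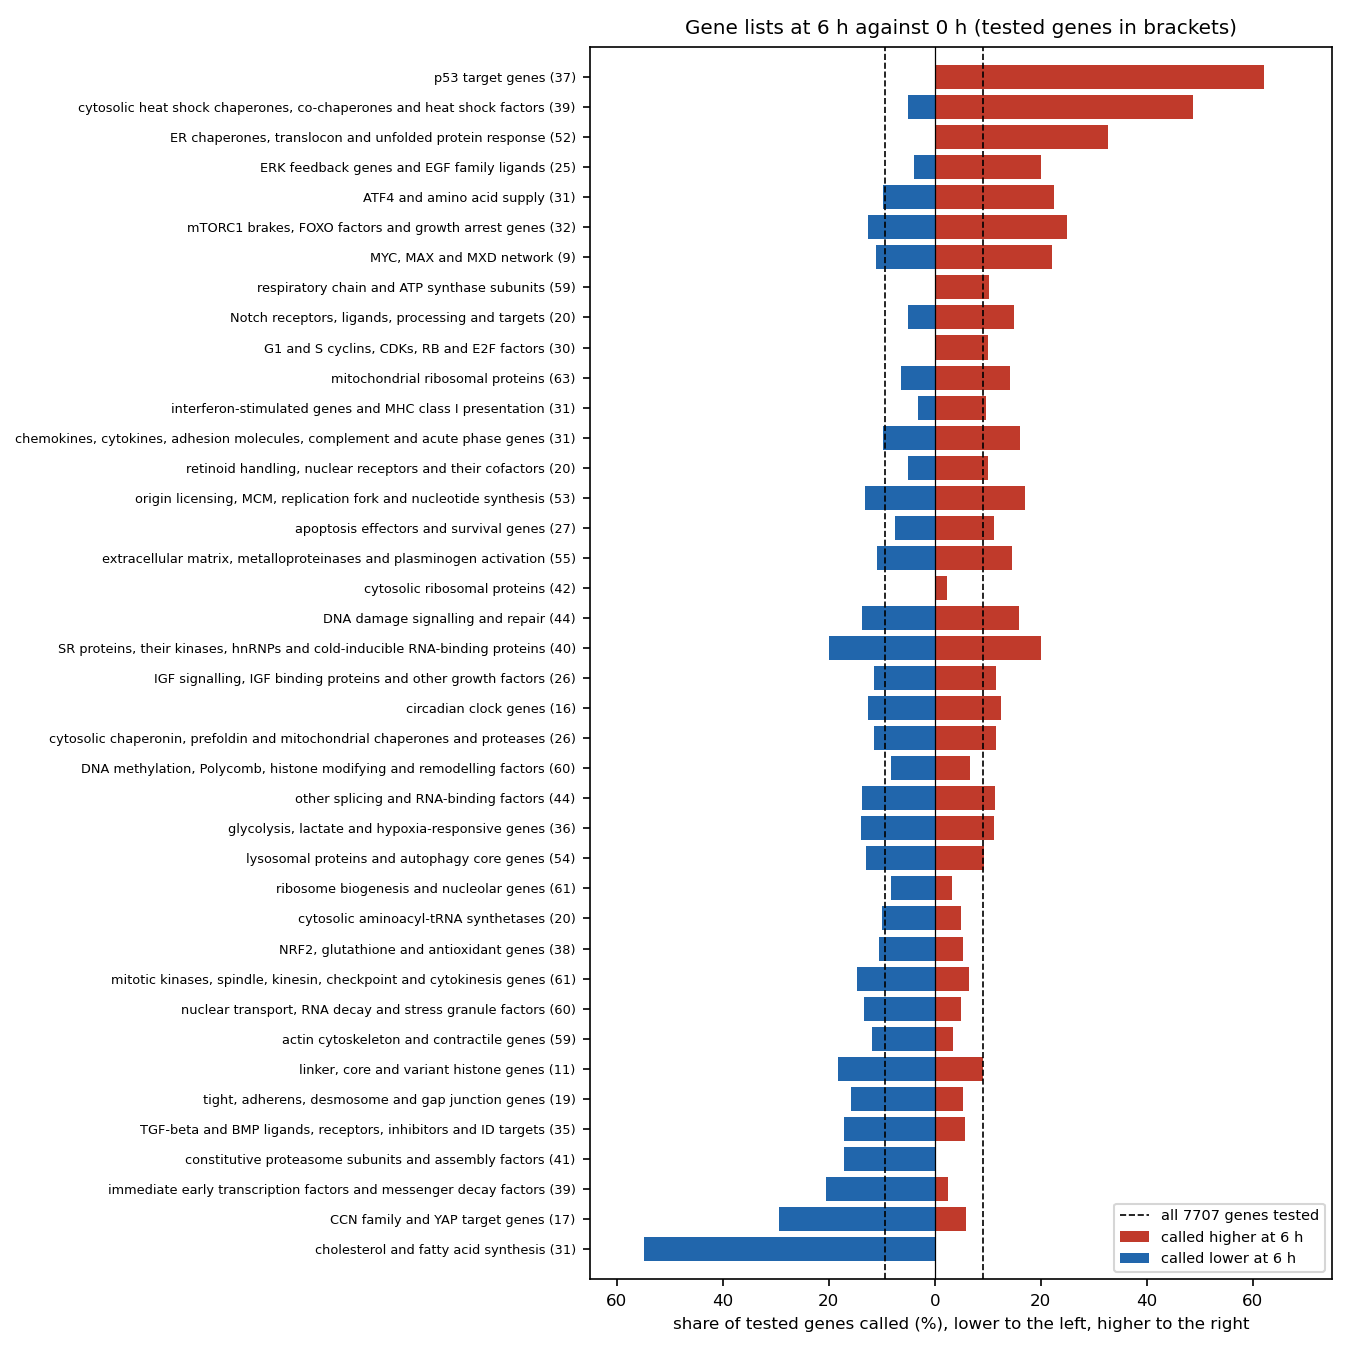
Bars give the share of tested genes in each of 40 lists that were called higher (red, right) or lower (blue, left) at 6 h against 0 h, with the number of tested genes in brackets. Dashed lines mark the shares over all 7707 genes tested, 9.15% higher and 9.33% lower. p53, heat shock and ER genes extend farthest to the right and cholesterol and fatty acid synthesis genes farthest to the left.

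Among the p53 targets, Cdkn1a, which encodes the cell cycle inhibitor p21, had 6204 and 6461 units at 6 h, against 912 and 808 units at 0 h. Phlda3, encoding a repressor of AKT signalling, had 2524 and 2868 units at 6 h, against 849.5 and 763 units at 0 h (log2 change 1.71 ± 0.11). In both genes the lower 6 h array stood well above the higher 0 h array. Gtse1, whose product binds p53 and microtubules, rose 3.26-fold, and Polk, encoding a DNA polymerase that copies past damaged bases, rose 3.13-fold. Of the 37 tested targets, 0 fell and 14 were not called, although 1 was called lower once each array was centred on its median.

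Of 39 tested cytosolic heat shock genes, 19 rose, 2 fell and 18 were not called. The count of falls depended on single arrays and on the probe set taken. On the probe set with the lowest p of each gene, 21 were higher and 1 was lower. Among cytosolic chaperones, the Hsp110 gene Hsph1 had 9279.7 and 7919 units at 6 h, against 972 and 952 units at 0 h, a log2 change of 3.13 ± 0.10 (adjusted p = 1.51e-08). Its relative Hspa4l, another Hsp110 gene, rose less, by 1.19 ± 0.11 on the same scale. Co-chaperones rose with them: Chordc1, which binds Hsp90, had 2054 and 2378 units at 6 h, against 873 and 908 units at 0 h (log2 change 1.29 ± 0.11). The Hsp90 activator gene Ahsa2 had 2488 and 2226 units at 6 h, against 1098 and 1006 units at 0 h (1.15 ± 0.13). Dnajb2, encoding an Hsp40 that delivers clients to Hsp70, was dimmer, with 327 and 305 units at 6 h, against 137 and 116 units at 0 h (1.19 ± 0.15). In each of these genes both 6 h arrays lay more than 2-fold above both 0 h arrays.

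Of 26 tested genes of the cytosolic chaperonin, prefoldin and the mitochondrial chaperones, 3 rose and 3 fell (left-out counts 3, 3, 1 and 1 higher, and 2, 3, 0 and 1 lower). The mitochondrial co-chaperonin gene Hspe1 rose 1.72-fold, with 7132 and 6684 units at 6 h, against 3758 and 4245 units at 0 h. Subunits of the cytosolic chaperonin split, with Cct4 higher (log2 change 0.33) and Cct3 lower (-0.38) on their brightest probe sets. Both calls were lost in a limma fit of the 0 h and 6 h arrays alone (adjusted p = 0.0741 and 0.0806). The chaperonin subunit gene Tcp1 had 7487 and 7214 at 6 h, against 9121 and 9419.5 at 0 h (log2 change -0.33), with adjusted p = 0.11 when 0 h replicate 1 was left out and 0.151 when 0 h replicate 2 was left out.

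The heat shock element, taken as GAA, TTC and GAA or TTC, GAA and TTC with 2 bases of any kind between neighbouring units, was searched on both strands in RefSeq promoter windows of assembly GRCm38.p6, from 250 bases before to 50 bases after each annotated start. The matches are shown because HSF1 is known to act through such sites. Of 6337 tested genes with a window, 38 (0.6%) held the element, as did 198 of all 32851 windows (0.6%). Of the 16 risen heat shock genes with a window, 2 held it, Hsph1 and Chordc1, as did Dnajb6, which was not called, among 14 that were not called. Hsph1 (3.13) and Chordc1 (1.29) were among the larger rises of the list, but Hspa1a (3.60) and Hspa1b (3.10) were not among the matches. Whether the element goes with the size of a rise was not tested. Among 73 genes with a window that rose at least 2-fold, 2 held the element (2.74%). In Hsph1 the site (chr5:149636288-149636300, minus strand) lies after the start. In Chordc1 (chr9:18292263-18292285, plus strand) 3 overlapping matches form a stretch across the start, which only the first of them crosses. Both are printed on the strand of the gene, and capitals mark the matched letters.
Hsph1: TTCTGGAAAGTTC
Chordc1: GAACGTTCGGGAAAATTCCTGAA
A window with no match says only that these letters are not in it.

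Of 52 tested ER chaperone and stress genes, 17 rose, 0 fell and 35 were not called. On the probe set with the lowest p of each gene, 20 were higher and 2 lower. Creld2, an ER protein with protein disulfide isomerase activity, had 3937 and 3227 units at 6 h, against 1180.5 and 975 units at 0 h (log2 change 1.71 ± 0.13, adjusted p = 1.64e-05), and Sdf2l1, an ER co-chaperone, had 1579 and 1424 units at 6 h, against 452 and 505 units at 0 h (1.61 ± 0.11). Hspa5 encodes BiP, the main Hsp70 of the ER, which also holds the stress receptors inactive. Its signal was 12352 and 10161 units at 6 h, against 5781 and 6357 units at 0 h, a smaller fold on a much brighter transcript (0.88 ± 0.12). Hsp90b1, the ER form of Hsp90, rose 2.16-fold and Manf, a secreted factor of the stressed ER, 1.8-fold. The stress transcription factor gene Atf4 was not called (2273 and 2384 at 6 h, against 2847 and 2526 at 0 h, -0.20 ± 0.09, adjusted p = 0.165). Ddit3, which encodes the pro-apoptotic factor CHOP, had 820.0 and 916 units at 6 h, against 612 and 614 units at 0 h (0.49 ± 0.11), with adjusted p = 0.0875 when 0 h replicate 1 was left out and 0.0827 when 0 h replicate 2 was left out.

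The ER stress element, taken as CCAAT, any 9 bases and CCACG on either strand, is the site known to be read by the stress factors ATF6 and XBP1 together with NF-Y, which binds its CCAAT end. It therefore always holds a CCAAT box, found alone in 43.5% of the tested genes' windows. That box was in the windows of 86.67% of the risen ER members and 64.29% of those not called. The element was defined on promoters of such genes, so its presence in them is not independent of the list. Of the 15 risen members with a promoter window, 8 held it (53.3%), against 2 of the 28 that were not called (7.14%), 13 of all 6337 tested genes (0.21%) and 39 of all 32851 windows (0.12%). The 10 members with the element had a median log2 change of 0.78, and the 33 without it one of 0.15. Of the 3 tested genes outside the list that held it, 0 were called. Among 73 genes with a window that rose at least 2-fold, 2 held it (2.74%). No test was run on these shares. Of the called members 7 had no match, and of the 10 members with the element 8 were called. The promoter stretches of these 8 are printed on the strand of the gene, with the element in capitals and 15 bases on each side.
Creld2, chr15:88819505-88819553, plus strand: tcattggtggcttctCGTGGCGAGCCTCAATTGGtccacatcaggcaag
Hsp90b1, chr10:86705518-86705671, minus strand: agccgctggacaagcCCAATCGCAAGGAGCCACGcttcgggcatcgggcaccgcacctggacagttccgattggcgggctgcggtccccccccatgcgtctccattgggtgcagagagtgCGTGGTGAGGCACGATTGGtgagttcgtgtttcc
Ero1b, chr13:12565667-12565715, plus strand: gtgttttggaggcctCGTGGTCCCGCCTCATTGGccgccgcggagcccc
Pdia6, chr12:17266476-17266524, plus strand: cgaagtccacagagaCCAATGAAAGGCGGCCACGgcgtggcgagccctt
Hspa5, chr2:34772010-34772058, plus strand: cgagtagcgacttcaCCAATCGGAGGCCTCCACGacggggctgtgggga
Calr, chr8:84847060-84847108, minus strand: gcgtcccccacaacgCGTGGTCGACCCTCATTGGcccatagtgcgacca
Dnajc3, chr14:118937812-118937860, plus strand: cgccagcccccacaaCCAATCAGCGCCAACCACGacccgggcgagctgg
Canx, chr11:50325785-50325833, minus strand: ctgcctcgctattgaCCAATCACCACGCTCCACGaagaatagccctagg
The lines run from the largest log2 change to the smallest. Hsp90b1 holds 2 elements, 1 in each orientation, and Creld2, Ero1b and Calr hold theirs in reverse. Sdf2l1 (1.61) and Pdia4 (1.40) had no match in their windows, which says only that these letters are not there.

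**Figure D3:**
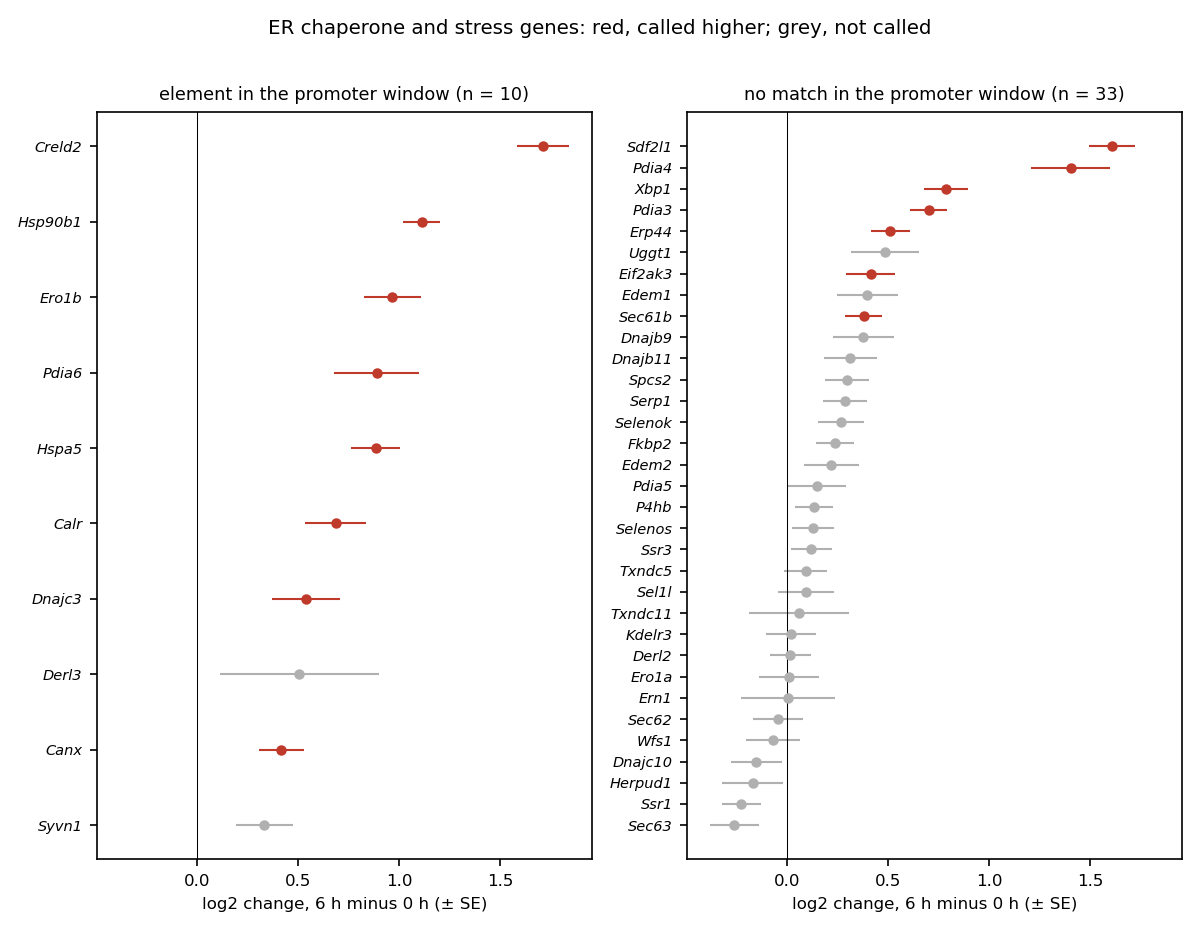
Points give the log2 change, 6 h minus 0 h, and bars its standard error, for ER chaperone and stress genes with the ER stress element in their promoter window (left, 10 genes) and without a match (right, 33 genes). Red points were called higher and grey points not called. On the left, 8 of 10 genes were called, and on the right 7 of 33, with Sdf2l1 and Pdia4 at the top.

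The genes P4ha1, Plod2 and Serpinh1, whose products act on new collagen in the ER, rose, but they come from 3 different lists and were not counted as a group. P4ha1, a prolyl hydroxylase subunit that modifies collagen in the ER, had 1285 and 1179 units at 6 h, against 378 and 346 units at 0 h, a 3.27-fold rise. Plod2, a collagen lysyl hydroxylase, had 1539 and 1385 units at 6 h, against 755 and 655 units at 0 h (2.04-fold, although the other probe set of this gene was at 0.26 on the log2 scale). Serpinh1, the collagen chaperone Hsp47 and itself a known heat shock gene, had 4352 and 6385 units at 6 h, against 2014 and 2039 units at 0 h (log2 change 1.37 ± 0.16). The 2 arrays at 6 h were apart for Serpinh1, yet the lower stood more than 2-fold above both 0 h arrays. The matrix list was split, with 8 members higher and 6 lower of 55 (left-out counts 4, 11, 4 and 4 higher, and 5, 8, 1 and 2 lower). The collagenase gene Mmp13 had 497 and 661 units at 6 h, against 114 and 102 units at 0 h. Stromelysin 2, Mmp10, had 282 and 284 units at 6 h, against 60.1 and 76.7 units at 0 h. The basement membrane collagen gene Col4a2 fell, with 764 and 930.1 units at 6 h, against 1427 and 1332 units at 0 h (log2 change -0.70 ± 0.12).

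Of the 3 genes with the largest falls, Cirbp and Srsf5 encode RNA-binding proteins, and the list of SR proteins and hnRNPs was called in both directions, 8 higher and 8 lower of 40 (left-out counts 5, 7, 3 and 3 higher, and 7, 9, 5 and 7 lower). Other splicing factors had 5 rises and 6 falls among 44 (left-out counts 6, 8, 0 and 1 higher). Srsf5, an SR protein that promotes exon inclusion, had 805 and 942 units at 6 h, against 3539 and 4049 units at 0 h, a log2 change of -2.09 ± 0.12 (adjusted p = 1.39e-06). Hnrnpd, which encodes AUF1, a protein that binds AU-rich elements in short-lived messages, had 560.0 and 606 units at 6 h, against 1854 and 1965 units at 0 h (-1.68 ± 0.11). Cirbp, the cold-inducible RNA-binding protein, had 9.4 and 41.5 units at 6 h, against 347 and 356 units at 0 h, so that its 6 h signal lay near the offset of 21.9 units, on which the size of its fall depends. Thrap3, an SR-related protein of messenger processing, had 548 and 529.7 units at 6 h, against 1416 and 1341 units at 0 h (-1.32 ± 0.10). Its paralog Bclaf1 had 498 and 438 units at 6 h, against 1266 and 1201 units at 0 h (-1.36 ± 0.12). The 2 groups did not overlap for any of these 5 genes, which was a condition for being named among the largest falls. Of 3 tested probe sets of Thrap3, 2 were called lower.

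Other RNA-binding factors fell to a lesser degree. The DEAD-box helicase gene Ddx5 had 3195 and 3108 units at 6 h, against 6280.0 and 6074 units at 0 h (-0.97 ± 0.09), but of its 6 probe sets 3 were called lower and the highest stood at 0.46. Its relative Ddx39b, a messenger export helicase, had 2602 and 2682 units at 6 h, against 4391 and 4159 units at 0 h (-0.69 ± 0.09). Srsf6 (log2 change -0.61 ± 0.10), Hnrnpdl (-0.75 ± 0.11) and Rbmx (-1.01 ± 0.17) were lower as well. Not every member fell: Hnrnph3 had 970.5 and 1055 units at 6 h, against 452 and 448 units at 0 h. Hnrnpul2 had 1528 and 1328 units at 6 h, against 725 and 708 units at 0 h, on 1 of its 2 probe sets. Srsf3, another SR protein, was not called (3633 and 3883 at 6 h, against 4097 and 4341 at 0 h, -0.17 ± 0.10, adjusted p = 0.283) on its brightest probe set, although 3 of its 6 probe sets were called higher. Of the kinases of SR proteins, Clk4 had 528 and 479 units at 6 h, against 362 and 339 units at 0 h (0.50 ± 0.12), with adjusted p = 0.0742 when 0 h replicate 1 was left out, 0.118 when 0 h replicate 2 was left out and 0.0649 when 6 h replicate 1 was left out, and Clk1 was not called (798 and 844 at 6 h, against 812 and 762 at 0 h, 0.06 ± 0.12, adjusted p = 0.763). In the list of nuclear transport and RNA decay, 3 of 60 rose and 8 fell (left-out counts 2, 9, 1 and 1 higher, and 6, 14, 2 and 2 lower). Xrn2, the nuclear exonuclease that ends transcription, had 466 and 552 units at 6 h, against 1225 and 1310.4 units at 0 h (-1.29 ± 0.12). Dis3, a catalytic subunit of the exosome, had 976 and 868 units at 6 h, against 1598 and 1674 units at 0 h (-0.81 ± 0.11).

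**Figure D4:**
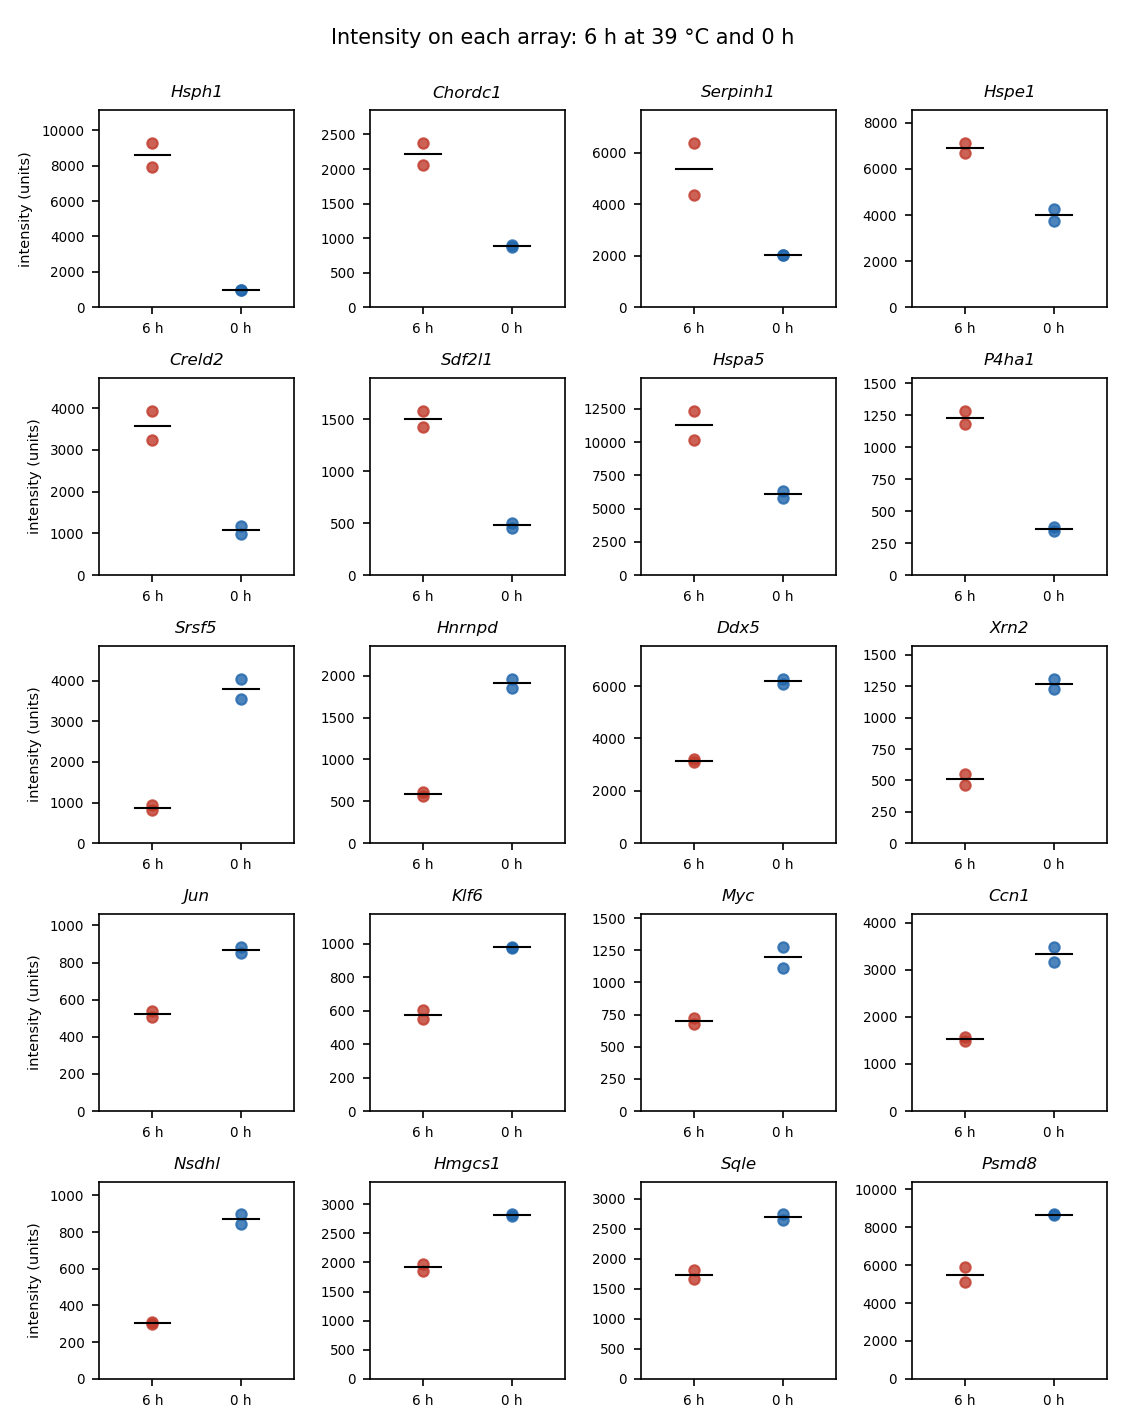
Each panel gives 1 gene, with intensity in units (y, from 0) on the 2 arrays at 6 h (red) and the 2 arrays at 0 h (blue) and a line at each mean. The upper 8 panels show genes higher at 6 h and the lower 12 genes lower at 6 h. In each panel the 2 times do not overlap, as in 59.1% of all tested probe sets.

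Immediate early genes, which serum and stress switch on within minutes, were listed together with messenger decay factors. This list had 1 rise, 8 falls and 30 members not called among 39 (left-out counts 2, 1, 0 and 0 higher, and 8, 5, 3 and 4 lower). Jun, a component of AP-1, had 540.4 and 507 units at 6 h, against 886 and 853 units at 0 h (-0.71 ± 0.10), and its 2 probe sets were both lower. Klf6, a zinc finger factor, had 547 and 602 units at 6 h, against 982 and 974 units at 0 h (-0.75 ± 0.12). Fos (149.7 and 103 at 6 h, against 79.1 and 74.1 at 0 h, adjusted p = 0.0857), Egr1 (658 and 565 at 6 h, against 645 and 601 at 0 h, adjusted p = 0.907) and Atf3 (148 and 182 at 6 h, against 216 and 247 at 0 h, adjusted p = 0.101) were not called.

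CCN family and YAP target genes, a list that also holds regulators of the pathway, had 5 falls and 1 rise among 17. Ccn1, a secreted matricellular protein, had 1492 and 1570.3 units at 6 h, against 3497 and 3161 units at 0 h (-1.11 ± 0.11). Ccn2, connective tissue growth factor, had 1549.7 and 1429 units at 6 h, against 2608 and 2587 units at 0 h (-0.79 ± 0.10). Thbs1, thrombospondin 1, which activates latent TGF-beta, had 1838 and 1741 units at 6 h, against 3806 and 3569 units at 0 h (-1.03 ± 0.11). Both arrays at 6 h lay below both at 0 h in all 3 genes, which adds little to their calls (no overlap in 59.1% of all tested probe sets). The focal adhesion gene Zyx had 665 and 684 units at 6 h, against 1126 and 1226 units at 0 h (-0.78 ± 0.10). In the actin cytoskeleton list 2 of 59 rose and 7 fell (left-out counts 2, 6, 1 and 0 higher, and 5, 10, 1 and 1 lower). Among TGF-beta and BMP genes 2 of 35 rose and 6 fell (left-out counts 2, 2, 0 and 1 higher, and 5, 10, 3 and 5 lower). Id2, an inhibitor of basic helix-loop-helix factors, had 1483 and 1959 units at 6 h, against 2777 and 3051 units at 0 h (-0.76 ± 0.13). Id1 (2992 and 2324 at 6 h, against 2410.2 and 2239 at 0 h, adjusted p = 0.323) and Id3 (4722 and 3791 at 6 h, against 3889.5 and 3869 at 0 h, adjusted p = 0.484) were not called. Fstl1, a secreted BMP-binding protein, was the furthest down in this list, with 695 and 654 units at 6 h, against 2294 and 2262 units at 0 h (-1.72 ± 0.11).

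MYC and its antagonist Mxd4 had called changes of opposite sign. Myc had 726 and 679 units at 6 h, against 1278 and 1112 units at 0 h (-0.75 ± 0.13). Mxd4, whose product competes with MYC for its partner MAX, had 392 and 378 units at 6 h, against 235 and 218 units at 0 h (0.72 ± 0.12). Max itself was not called (195 and 250.1 at 6 h, against 247 and 214 at 0 h, adjusted p = 0.876). The list of mTORC1 brakes, FOXO factors and growth arrest genes had 8 rises and 4 falls among 32 (left-out counts 10, 7, 4 and 4 higher, and 2, 3, 1 and 2 lower). Ddit4, an inhibitor of mTORC1 that is also a p53 target, had 1242 and 1485 units at 6 h, against 343 and 419 units at 0 h (1.78 ± 0.12). Pnrc1, a nuclear receptor coactivator, had 1403 and 1542 units at 6 h, against 655 and 641 units at 0 h (1.16 ± 0.10). Gas1, a surface protein of growth-arrested fibroblasts, went the other way, with 473 and 412 units at 6 h, against 692 and 675 units at 0 h (-0.61 ± 0.11). Ribosome biogenesis genes, many of them MYC targets in other cells, had 2 rises and 5 falls among 61 (left-out counts 1, 4, 0 and 0 higher, and 3, 8, 2 and 2 lower), with a median of -0.09, and 54 were not called. Among them Wdr43 had 921 and 784 units at 6 h, against 1552 and 1392 units at 0 h (-0.78 ± 0.13). The helicase gene Ddx52 had 449 and 569.8 units at 6 h, against 955 and 959 units at 0 h (-0.89 ± 0.13). The 3 called G1 and S phase genes were the D-type cyclins. Ccnd1 had 5247 and 4353 units at 6 h, against 2925 and 2930.5 units at 0 h (0.70 ± 0.11), with all 3 of its probe sets higher. The calls of Ccnd2 (0.37 ± 0.09) and Ccnd3 (0.57 ± 0.15) were less firm. Both were lost in a limma fit of the 0 h and 6 h arrays alone (adjusted p = 0.0523 for each).

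Sterol and fatty acid synthesis genes had the largest share of falls of the 40 lists, with 0 of 31 higher, 17 lower and 14 not called. Nsdhl, a sterol dehydrogenase, had 298 and 312 units at 6 h, against 843 and 896 units at 0 h, a log2 change of -1.45 ± 0.12 (adjusted p = 3.23e-05). Hmgcs1, the synthase at the head of the pathway, had 1972 and 1855 units at 6 h, against 2823 and 2803 units at 0 h (-0.55 ± 0.09). Cyp51, lanosterol demethylase, had 1180.1 and 1210.5 units at 6 h, against 1728 and 1771 units at 0 h (-0.54 ± 0.09). Sqle, squalene epoxidase, had 1663 and 1808 units at 6 h, against 2653 and 2742 units at 0 h (-0.63 ± 0.10). These enzymes stand at different steps of 1 pathway. On each of them both 6 h arrays lay below both 0 h arrays, but they were named as called falls. A lack of overlap was seen in 59.1% of all tested probe sets, so it adds little to the calls. Acaca, which makes malonyl-CoA for fatty acid synthesis, had 113 and 142 at 6 h, against 244 and 227 at 0 h (log2 change -0.79), with adjusted p = 0.0961 when 0 h replicate 1 was left out, 0.0629 when 0 h replicate 2 was left out and 0.057 when 6 h replicate 1 was left out.

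Of 41 tested proteasome subunit genes, whose products degrade ubiquitin-tagged proteins, 0 rose, 7 fell and 34 were not called (left-out counts 0, 1, 0 and 0 higher, and 7, 7, 1 and 3 lower). Psmd8, a subunit of the regulatory lid, had 5909 and 5085 units at 6 h, against 8666 and 8619 units at 0 h (-0.65 ± 0.11). The other 6 had log2 changes between -0.54 and -0.30.

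Lists of secreted ligands and signalling genes were called in both directions. Growth factor and IGF genes had 3 rises and 3 falls among 26 (left-out counts 3, 2, 1 and 0 lower), and cytokine and adhesion genes 5 rises and 3 falls among 31 (left-out counts 1, 2, 0 and 1 lower). Pdgfa, a growth factor for mesenchymal cells, had 271 and 344 units at 6 h, against 131 and 109 units at 0 h (1.21 ± 0.19). Wnt4, which acts in gonad development, had 771 and 619.9 units at 6 h, against 372 and 351 units at 0 h (0.90 ± 0.14). The cytokine gene Lif had 309 and 231 units at 6 h, against 131 and 131 units at 0 h (0.92 ± 0.18). Prostaglandin synthase 2, Ptgs2, had 1392 and 1433 units at 6 h, against 625 and 638 units at 0 h (1.13 ± 0.11). Vcam1, an adhesion molecule for leukocytes, had 378 and 328 units at 6 h, against 168 and 156 units at 0 h (1.02 ± 0.13), on 2 of its 3 probe sets. In these 5 called genes both 6 h arrays lay above both 0 h arrays, where 59.1% of all tested probe sets had no overlap. On the other side, the chemokine gene Cxcl15 had 14.2 and 12.1 units at 6 h, against 50.1 and 34.5 units at 0 h (-0.86 ± 0.23). Both 6 h values lay below the offset of 21.9 units, and its brightness for testing came from later arrays (519 and 501 units at 24 h). Its call was lost in a limma fit of the 0 h and 6 h arrays alone (adjusted p = 0.155) and when 0 h replicate 1 was left out. Igfbp2, an IGF-binding protein, had 1179 and 1120.2 units at 6 h, against 1516 and 1467 units at 0 h (-0.37 ± 0.10), with adjusted p = 0.167 when 0 h replicate 1 was left out, 0.115 when 0 h replicate 2 was left out and 0.0532 when 6 h replicate 2 was left out. Kitl, the Sertoli ligand for the germ cell receptor KIT, had 2390.0 and 1739 units at 6 h, against 1195 and 1305 units at 0 h (0.70 ± 0.14), on 1 of its 4 probe sets, with adjusted p = 0.0764 when 0 h replicate 1 was left out. Inhbb, the beta B subunit of inhibin and activin, had 321 and 308 units at 6 h, against 176 and 208 units at 0 h (0.66 ± 0.14), with adjusted p = 0.0975 when 0 h replicate 1 was left out. In the glycolysis and hypoxia list, with 4 rises and 5 falls among 36 (left-out counts 4, 7, 1 and 2 lower), Angptl4, a secreted inhibitor of lipoprotein lipase, had 739 and 553 units at 6 h, against 129 and 149 units at 0 h (2.04 ± 0.15). The receptor gene Notch1 had 866 and 664 units at 6 h, against 155 and 193 units at 0 h (a 4.0-fold rise). Its target Hes1 had 448 and 379 units at 6 h, against 252 and 237 units at 0 h (0.70 ± 0.14), with adjusted p = 0.0604 when 0 h replicate 2 was left out. Of the 20 tested Notch genes, 3 rose, 1 fell and 16 were not called (left-out counts 1, 1, 1 and 0 lower).

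Cell cycle and genome maintenance genes were called in both directions. In the replication list, 9 of 53 rose and 7 fell (left-out counts 11, 9, 4 and 3 higher, and 6, 6, 3 and 3 lower). Cdc6, which loads the replicative helicase, had 1541 and 1827 units at 6 h, against 912 and 975 units at 0 h (0.82 ± 0.13). Pole, the leading strand polymerase, had 606 and 672 units at 6 h, against 1513 and 1399 units at 0 h (-1.16 ± 0.12). The thymidine kinase gene Tk1 had 1675 and 1431 units at 6 h, against 2730.5 and 2638 units at 0 h (-0.79 ± 0.11). Among repair genes 7 of 44 rose and 6 fell (left-out counts 6, 9, 3 and 5 higher, and 5, 7, 3 and 5 lower). The mismatch repair gene Msh6 had 1828 and 2090.4 units at 6 h, against 1136 and 1027 units at 0 h (0.84 ± 0.10). Rad18, a ubiquitin ligase of replication stress, had 229 and 209 units at 6 h, against 458 and 433 units at 0 h (-0.96 ± 0.14). The checkpoint kinase gene Atr had 102 and 142 units at 6 h, against 271 and 277 units at 0 h (-1.05 ± 0.18). In the mitosis list 4 of 61 rose and 9 fell (left-out counts 11, 12, 2 and 2 lower). The mitotic kinesin gene Kifc1 had 609 and 525 units at 6 h, against 235 and 339 units at 0 h (0.95 ± 0.17). Cenpa, the centromeric histone, had 1296 and 1354 units at 6 h, against 2163 and 2182 units at 0 h (-0.70 ± 0.13). The linker histone gene H1f2 fell the furthest of the histone and chromatin lists, with 234 and 280.3 units at 6 h, against 1444 and 1411 units at 0 h (-2.38 ± 0.14), and both of its probe sets were lower. Of 60 chromatin factors 4 rose and 5 fell (left-out counts 8, 4, 2 and 0 higher, and 5, 7, 3 and 5 lower), among them Hmgb3 (-0.68 ± 0.12), Hdac3 (-0.68 ± 0.11) and the histone chaperone gene Chaf1b (-0.67 ± 0.11).

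The list of ATF4 and amino acid supply genes held 7 rises and 3 falls among 31 (left-out counts 5, 7, 2 and 2 higher). Cebpb, a transcription factor of stress and inflammation, had 1924 and 1717 units at 6 h, against 995 and 1009.5 units at 0 h (0.84 ± 0.10). Slc1a5, a glutamine transporter, had 147 and 163 units at 6 h, against 363 and 354 units at 0 h (-1.11 ± 0.20). Vldlr, a lipoprotein receptor, had 299 and 319.5 units at 6 h, against 599 and 591 units at 0 h (-0.90 ± 0.13), on 1 of its 2 probe sets. Cytosolic aminoacyl-tRNA synthetases, which charge transfer RNAs, had 1 rise and 2 falls among 20 (left-out counts 0, 3, 0 and 0 higher, and 1, 1, 0 and 0 lower). The glutathione and antioxidant list had 2 rises and 4 falls among 38 (left-out counts 1, 4, 0 and 1 higher, and 1, 5, 0 and 0 lower).

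The counts of mitochondrial and ribosomal genes moved with single arrays. Of 59 respiratory chain genes 6 rose, by 0.27 to 0.41 on the log2 scale, and 0 fell (left-out counts 3, 14, 0 and 0 higher, and 0, 2, 0 and 0 lower). Of 42 cytosolic ribosomal protein genes 1 rose, Rpl14 (468 and 479.7 units at 6 h, against 278 and 253 units at 0 h, 0.79 ± 0.13) (left-out counts 1, 19, 1 and 1 higher). Mitochondrial ribosomal proteins had 9 rises and 4 falls among 63 (left-out counts 5, 13, 2 and 2 higher, and 4, 6, 0 and 1 lower). Lysosome and autophagy genes had 5 rises and 7 falls among 54 (left-out counts 3, 7, 1 and 1 higher, and 4, 5, 2 and 2 lower), where Atg3, an enzyme of autophagosome formation, had 3476 and 3057 units at 6 h, against 2086 and 2089.5 units at 0 h (0.64 ± 0.10). Gabarapl1, an autophagosome coat protein, had 534 and 545 units at 6 h, against 821 and 828 units at 0 h (-0.59 ± 0.10). Clock genes had 2 rises and 2 falls among 16 (left-out counts 2, 2, 2 and 0 higher, and 1, 3, 1 and 1 lower), and Csnk1e, casein kinase 1 epsilon, had 548 and 593 units at 6 h, against 1035 and 981 units at 0 h (-0.80 ± 0.11). Per1 was not called (142 and 165 at 6 h, against 136 and 144 at 0 h, adjusted p = 0.749).

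Many of the called genes, 517 higher and 555 lower, stood in no list. Those among the 20 largest rises and 20 largest falls included Wdr78, a gene of ciliary motor assembly, with 118 and 141 units at 6 h, against 18.2 and 35.4 units at 0 h (1.65 ± 0.26), where the 0 h signal lay near the offset. Trmt1l, a relative of a transfer RNA methyltransferase, had 405 and 424 units at 6 h, against 145 and 90.3 units at 0 h (1.67 ± 0.19). The kinase gene Dyrk3, which acts on the dissolving of stress granules, had 193 and 215 units at 6 h, against 92 and 16.7 units at 0 h (1.77 ± 0.40), with adjusted p = 0.0582 when 0 h replicate 2 was left out. Among the falls, Nudcd3, a co-chaperone of the dynein motor, had 204 and 305 units at 6 h, against 884 and 736 units at 0 h (-1.61 ± 0.20). Ash2l, a core subunit of the complexes that methylate histone H3, had 409 and 468 units at 6 h, against 1135 and 1208 units at 0 h (-1.38 ± 0.12), on 1 of its 2 probe sets. The cytosolic nucleotidase gene Nt5c2 had 328 and 333 units at 6 h, against 891 and 859.6 units at 0 h (-1.35 ± 0.12), and all 3 of its probe sets were lower. Ofd1, a protein of the centriole at the base of the cilium, had 42.3 and 63.9 units at 6 h, against 188 and 190.0 units at 0 h (-1.51 ± 0.28). Nbea, a large protein of vesicle traffic, had 179 and 200.5 units at 6 h, against 525 and 552 units at 0 h (-1.40 ± 0.14). In each of these falls both 6 h arrays lay below both 0 h arrays, but this was a condition for being named among the 20 largest.

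Some 6 h changes had turned by 12 h. The comparison of 12 h with 6 h shares the 6 h arrays with that of 6 h with 0 h, so a high or low pair at 6 h moves both, and most genes named here were picked for the size of their turn. Between 6 and 12 h, 656 genes were called (8.51%), 380 higher (4.93%) and 276 lower (3.58%). Srsf5 had 3539 and 4049 units at 0 h, 805 and 942 at 6 h and 2861 and 2711 at 12 h, and its log2 change from 6 to 12 h was 1.65 ± 0.12 (adjusted p = 4.55e-05). Thrap3 had 1416 and 1341 units at 0 h, 548 and 529.7 at 6 h and 1088 and 1170.4 at 12 h (1.04 ± 0.10). Bclaf1 had 1266 and 1201 units at 0 h, 498 and 438 at 6 h and 987 and 823 at 12 h (0.92 ± 0.12). All 3 RNA processing genes were still below 0 h on both 12 h arrays. Bnip3, a mitophagy receptor, had 716 and 769 units at 0 h, 358 and 259 at 6 h and 793 and 848 at 12 h (1.37 ± 0.14). Ift140, a component of cilium transport, had 234 and 220.1 units at 0 h, 62.1 and 94.1 at 6 h and 256 and 229 at 12 h (1.42 ± 0.18). These 2 genes stood near or above their 0 h level at 12 h. The surface protein gene Gas1 had 692 and 675 units at 0 h, 473 and 412 at 6 h and 861 and 834 at 12 h (0.91 ± 0.11).

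In the other direction, Hspa1a, the inducible Hsp70, had 269.9 and 307 units at 0 h, 3403 and 4085 at 6 h and 918 and 1090.1 at 12 h (log2 change from 6 to 12 h -1.88 ± 0.14). The signals of Hspa1a and of its near-identical copy Hspa1b cannot be fully told apart. Irs1, the insulin receptor substrate, had 978 and 1056 units at 0 h, 1769 and 1649.8 at 6 h and 967 and 975 at 12 h (-0.80 ± 0.10), which is close to its 0 h level. Hsph1 had a log2 change of -0.82 ± 0.10 from 6 to 12 h and stayed above 0 h on both arrays at 12 h. Of the named RNA processing genes, Hnrnpd (0.01 ± 0.11, adjusted p = 0.983), Srsf6 (-0.09 ± 0.10, adjusted p = 0.632) and Rbmx (0.04 ± 0.17, adjusted p = 0.909) were not called between 6 and 12 h.

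**Figure D5:**
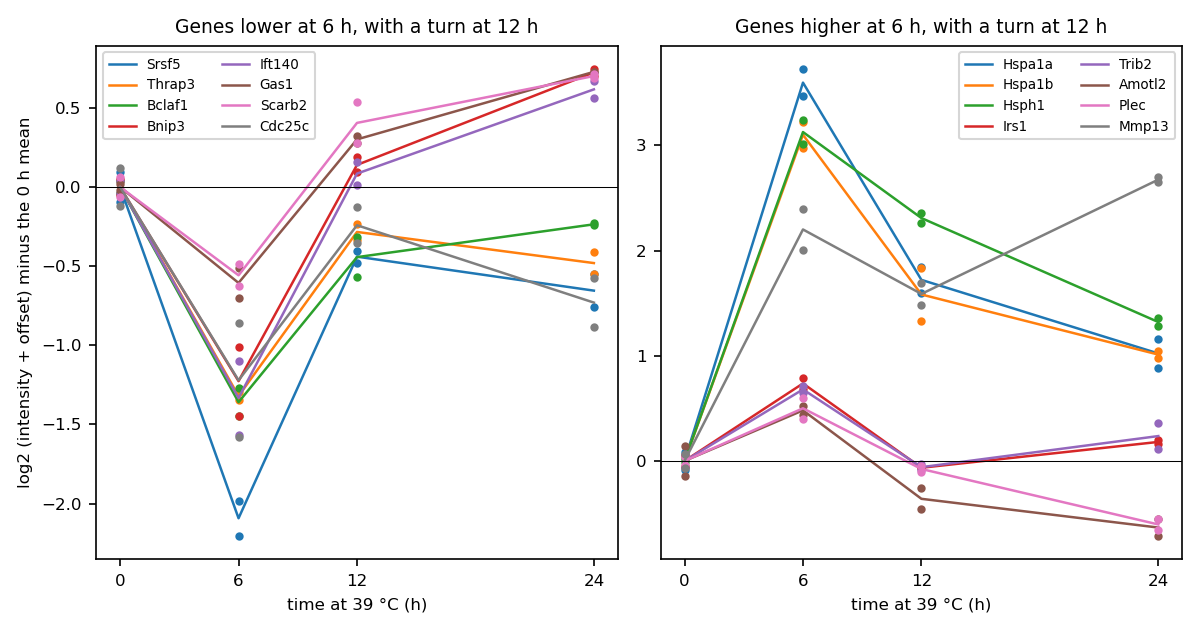
Lines join the means of log2(intensity + offset), less the 0 h mean, at 0, 6, 12 and 24 h at 39 °C, and points give the 2 arrays of each time. The left panel has 8 genes that were lower at 6 h and the right panel 8 that were higher, all with an opposite change at 12 h against 6 h. Srsf5, Thrap3 and Bclaf1 return part of the way, and Bnip3, Gas1 and Scarb2 pass their 0 h level, while Mmp13 rises again by 24 h.

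Probe sets of 1 gene did not always move together. Of 3130 genes with more than 1 tested probe set, 356 had at least 2 called, and in 21 of these probe sets were called in opposite directions. Fam120b had 505 and 544 units at 6 h, against 169 and 191 units at 0 h on 1 probe set (1.44 ± 0.15). The other had 83.9 and 56.2 units at 6 h, against 242 and 230.6 units at 0 h (-1.51 ± 0.23). Kif1b, encoding a kinesin motor, had a log2 change of 0.71 ± 0.11 on its brightest probe set and of -1.30 ± 0.12 on another. In Hspa4, an Hsp110 gene, the values were 2.06 ± 0.16 and -0.51 ± 0.10. These genes have no single direction in these data, and which transcript each probe set reads was not tested.

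Among 13 commonly used reference genes, 0 rose and 2 fell (left-out counts 1, 2, 0 and 0 lower). Actb had 25185 and 20802 at 6 h, against 22506 and 23967 at 0 h (-0.02 ± 0.11, adjusted p = 0.917), and Eef1a1 had 27974 and 23434 at 6 h, against 24737 and 25910.0 at 0 h (0.02 ± 0.11, adjusted p = 0.936). The 2 falls were Pgk1 (-0.42) and Hprt (-0.36). For Pgk1 the adjusted p was 0.207 when 0 h replicate 1 was left out, 0.135 when 0 h replicate 2 was left out and 0.152 when 6 h replicate 1 was left out. For Hprt it was 0.0946 when 0 h replicate 1 was left out and 0.16 when 0 h replicate 2 was left out.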

How the data were processed

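RNA of TTE3 cells was hybridised to Affymetrix Mouse 430A arrays, 1 sample per array, with 2 numbered samples at each of 0, 6, 12 and 24 h, grouped by their titles. The deposited values are linear probe set intensities, and the software that made them is not given in the sources used here. Trimmed means of these deposited intensities lay between 496.85 and 497.29 on all 8 arrays, from which a scaling to a common mean before deposit is inferred, so a change in total mRNA per cell is not visible, and no detection calls were used. Log2(intensity + 21.9) was computed from the deposited intensities, the offset being the 20th percentile of all values, so a log2 change understates that of a dim gene, and folds are 2 to that power. A probe set was tested if its mean log2 value reached 6.58, the 40th percentile.

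All 8 arrays entered 1 limma fit (limma 3.58.1, R 4.3.3; lmFit and eBayes with a variance trend, 4 residual and 7.22 prior degrees of freedom), contrasted as 6 h minus 0 h and 12 h minus 6 h, 2-sided, with Benjamini-Hochberg adjustment over 13576 probe sets and calls at adjusted p below 0.05. The fit was tested on simulated data. A gene is given by its brightest tested probe set with 1 symbol; 691 probe sets with several symbols and 1555 without one were not named. Promoter sequences are from RefSeq, assembly GRCm38.p6, matched by symbol for 6337 of 7707 tested genes. Other motifs searched, for which no shares are given, were the cyclic AMP element, AP-1 element, E-box and CArG box.

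The contrast, the gene lists (47, with 2105 entries) and the rule for naming genes were chosen with earlier results of these data known. Named were the 20 largest rises and 20 largest falls, up to 8 called members of each list, every tested member of lists with at most 20, a set of marker and regulator genes, genes with opposed probe sets and genes that turned at 12 h. The 20 rises and 20 falls were taken only from called genes whose 6 h and 0 h arrays did not overlap. Alternatives were other offsets, filters, scalings, arrays in the fit, no variance trend, a replicate block and leaving out each array. For counts of list genes, the probe set with the lowest p of each gene was also taken. Precision is limited by 2 arrays per time. Some members of the lists are not reported here by name.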

Additional observations from a re-analysis of the deposited data

How the results depend on the processing

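Of 2441 called probe sets, 628 stayed called under each of 14 alternatives that tested them (329 higher and 299 lower), and none of the named log2 changes that were called turned sign. Leaving out 1 array gave 836 to 3005 called probe sets, of which 453 to 1441 were higher and 383 to 1564 lower. It gave 114 to 234 probe sets lower at least 2-fold, 146 to 441 called list genes against 352, and 46 to 90 genes called between 12 and 6 h among the named genes, against 73. The low ends came without 0 h replicate 1 and the high ends without 6 h replicate 2. With a filter at the 60th percentile, which tests fewer probe sets, 106 rose and 67 fell at least 2-fold, against 161 and 134. Without the variance trend 45 of the named genes were called between 12 and 6 h, and the cause was not tested. With each array centred on its median 1022 probe sets rose and 1334 fell. When each list gene was taken by its probe set with the lowest p, a choice that favours calls, 466 were called against 352. Of the 279 named genes called, 143 lost the call without 0 h replicate 1, 121 without 0 h replicate 2, 63 without 6 h replicate 1, 31 without 6 h replicate 2, 56 without the variance trend, 53 without a filter and 44 in a fit of the 4 arrays alone. With the replicate number as a block 2813 probe sets were called, 1352 higher and 1461 lower. Deviations of same-numbered samples correlated with 0.05 between 6 and 0 h and 0.05 to 0.18 over all pairs of times, so the numbers are not treated as a pairing. Signals near the offset, such as that of Cirbp at 6 h, limit the size of a change that can be stated.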
